A study of Mus musculus with 6 samples.

Results

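The 7 genes described here encode the machinery with which antigen-presenting cells load peptides onto major histocompatibility complex (MHC) class II molecules. They are Cd74, H2-Aa, H2-Ab1, H2-Eb1, H2-DMa, H2-DMb1 and Ciita, taken by symbol from the 19131 genes listed for each library. All 7 were found, and all 7 passed the filter on low counts, Ciita through its control libraries alone. They were chosen by their read counts in knockout against control in these same 6 libraries, so the difference between the groups is given for them as a description, with no test.

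The study set skin of Tie1 knockout mouse embryos (3 libraries, titled Tie1ECDKO) against skin of control embryos (3 libraries, titled Tie1ECDWT), all at embryonic day 17.5 and on the C57BL/6N background. TIE1 is a receptor kinase found mainly on vessel-lining cells, and the series asks how it limits vessel sprouting and shapes veins. The labels do not explain the letters ECD, do not say in which cells Tie1 was lost, and do not say whether each library came from its own embryo, so the spread between libraries may be partly technical. Whole skin was sequenced after oligo(dT) selection, and in such bulk samples fewer cells of a type and less RNA per cell cannot be told apart.

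Class II molecules are pairs of an alpha and a beta chain that display peptides from endosomes to CD4+ T cells. The invariant chain, encoded by Cd74, escorts new pairs to the endosome and blocks their groove, and the H2-DM pair then exchanges its last fragment for a peptide. The coactivator CIITA, which binds no DNA itself, switches these genes on together by docking on factors that sit at a conserved promoter module, made of an X region and a CCAAT-type Y box. In skin the known carriers are dendritic cells, Langerhans cells and part of the macrophages, and Langerhans cells acquire most of their class II around and after birth. Mice of the H-2b haplotype, to which C57BL/6 belongs, do not transcribe the E alpha gene, so their H2-Eb1 product lacks its partner.

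H2-Aa, H2-Ab1, H2-Eb1, H2-DMa and H2-DMb1 lie together on chromosome 17. RefSeq promoter sequences (GRCm38.p6, 250 bases before and 50 after the annotated start) were considered here for 4 of the 7 only. These were H2-Aa, H2-Eb1, H2-DMa and H2-DMb1. Cd74, H2-Ab1 and Ciita were left out, so no result is given for their promoters. Sequences are shown for H2-Aa, H2-Eb1 and H2-DMb1 because the same arrangement of letters recurs in all 3. The levels of these 3 genes differed between the groups to different degrees. Capitals mark AAC, 2 or 3 further bases and TGANG (the X part), and then TGATTGG (the Y box). The sequences are on the gene's own strand, from chr17:34287774-34288073 (minus strand) for H2-Aa, chr17:34305617-34305916 (plus strand) for H2-Eb1 and chr17:34152941-34153240 (plus strand) for H2-DMb1.
H2-Aa: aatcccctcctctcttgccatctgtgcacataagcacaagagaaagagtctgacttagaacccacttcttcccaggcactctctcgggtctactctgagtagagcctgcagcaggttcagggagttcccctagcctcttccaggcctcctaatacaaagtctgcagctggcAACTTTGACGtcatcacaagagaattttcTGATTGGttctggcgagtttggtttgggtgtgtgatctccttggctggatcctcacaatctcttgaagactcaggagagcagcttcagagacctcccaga
H2-Eb1: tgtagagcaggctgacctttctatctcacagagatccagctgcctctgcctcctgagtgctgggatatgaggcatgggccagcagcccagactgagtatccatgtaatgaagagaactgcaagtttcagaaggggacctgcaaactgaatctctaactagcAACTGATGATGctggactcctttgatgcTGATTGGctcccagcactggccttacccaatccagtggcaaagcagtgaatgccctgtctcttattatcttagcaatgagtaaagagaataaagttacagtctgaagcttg
H2-DMb1: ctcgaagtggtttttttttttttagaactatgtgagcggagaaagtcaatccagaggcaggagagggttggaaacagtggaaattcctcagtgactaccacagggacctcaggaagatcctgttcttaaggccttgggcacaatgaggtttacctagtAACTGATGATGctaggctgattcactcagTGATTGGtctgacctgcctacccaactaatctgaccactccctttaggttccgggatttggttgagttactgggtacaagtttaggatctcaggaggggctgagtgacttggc

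In H2-Aa the first A of the X part lay 79 bases before the start and the TGATTGG began 50 bases before it, with 19 bases between the marked blocks. In H2-Eb1 these distances were 89, 61 and 17 bases, and in H2-DMb1 92, 63 and 18 bases. The arrangement was searched on both strands with 15 to 25 bases allowed between the blocks, and it was written down after these sequences had been seen. It was held by 14 of 32851 promoters in the table (0.0426%), while TGATTGG alone, which contains ATTGG and is part of the arrangement, was in 7.82% and ATTGG, the CCAAT core, in 37.4%. H2-DMb2 also held it. H2-DMa did not at either of the 2 starts listed for it, and a further GENCODE M21 coding start of H2-DMa at base 34135628 was not searched. A match of letters describes these windows only.

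The libraries were of similar size, with 19826856 to 20591164 estimated reads and 17277 to 17386 genes with any read. Levels are CPM, read counts divided by TMM-scaled library size, in which 3 reads, taken as the floor, were worth 0.147 to 0.155 CPM. Tie1 itself stood at 4.33, 2.63 and 2.26 CPM in knockout libraries, against 58.6, 50.7 and 60.0 CPM in control libraries, so every library matched its label for the targeted gene. The skin label was met in all 6, with summed epidermal keratinocyte markers at 21083 to 26205 CPM in knockout and 15540 to 32270 CPM in control, and summed dermal fibroblast markers at 34330 to 37424 and 32704 to 38634 CPM. The 8 pan-endothelial genes summed to 549 to 652 CPM in knockout and 534 to 621 CPM in control, with a median log2 fold change of −0.07. None of the genes of these 3 lists was called by edgeR, 2 endothelial genes had an unadjusted p under 0.05, 1 lower and 1 higher (3.35% and 4.08% of all genes), and DESeq2 called 1, Emcn. Over all 15035 genes tested, edgeR called 24 at an adjusted p under 0.05.

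Cd74 (GRCm38.p6 chromosome 18, 60803849 to 60812652) had the most reads of the 7 genes. It stood at 8.51, 8.83 and 9.86 CPM in knockout libraries, against 19.9, 15.4 and 17.5 CPM in control libraries. No knockout library reached the lowest control library. The means were 9.06 ± 0.710 CPM in knockout and 17.6 ± 2.29 CPM in control (SD, n = 3 each), and the log2 fold change was −0.96 (SE 0.13). These levels rest on 544 reads in knockout and 1069 in control, a knockout level of 51.5% of control (exact 95% interval 46.4 to 57.2%). That interval covers counting error of the pooled reads and not the spread between libraries. PCR copies are not independent molecules, so it may be too narrow even for counting error.

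H2-Aa (chromosome 17, 34282744 to 34287823), the alpha chain of the I-A molecule, had the lowest log2 fold change of the 7. It stood at 1.29, 2.03 and 2.16 CPM in knockout libraries, against 6.07, 4.80 and 6.07 CPM in control libraries. The groups did not overlap, and the highest knockout library was below the lowest control library by more than the SD of either group. The means were 1.83 ± 0.470 CPM in knockout and 5.65 ± 0.731 CPM in control (SD, n = 3 each), with a log2 fold change of −1.62 (SE 0.23). By reads, 110 in knockout and 343 in control, the knockout was at 32.5% of control (exact 95% interval 26.0 to 40.4%, with the same limits).

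H2-Ab1 (chromosome 17, 34263227 to 34269418), the beta chain that pairs with H2-Aa, did not follow its partner. It stood at 4.85, 5.11 and 7.12 CPM in knockout libraries, against 7.25, 6.14 and 6.71 CPM in control libraries. Knockout 3 lay within the control range and the other 2 knockout libraries lay below it, so the groups overlapped. The log2 fold change was −0.24 (SE 0.18), and it moved between −0.43 without knockout 3 and −0.07 without knockout 1 and control 1 together. H2-Eb1 (chromosome 17, 34305867 to 34316674), the beta chain of I-E, stood at 1.08, 1.64 and 1.82 CPM in knockout libraries, against 3.50, 2.87 and 3.31 CPM in control libraries. Here the groups did not overlap, and the log2 fold change was −1.09 (SE 0.24) on 91 knockout and 196 control reads.

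Both peptide-exchange chains overlapped between the groups. H2-DMa (chromosome 17, 34119693 to 34139101), the alpha chain of H2-DM, stood at 5.15, 5.65 and 4.96 CPM in knockout libraries, against 4.93, 4.95 and 5.58 CPM in control libraries. The groups covered the same range, and the log2 fold change was 0.03 (SE 0.14), with a sign that changed when single libraries were left out (−0.03 without knockout 2). H2-DMa overlaps Brd2, which averaged 216 ± 13.3 CPM in knockout and 219 ± 3.27 CPM in control (SD, n = 3 each). The sources used here do not say if strand was used in counting, so reads from the overlap cannot be told apart. H2-DMb1 (chromosome 17, 34153191 to 34160229), the beta chain of H2-DM, stood at 1.08, 1.69 and 1.72 CPM in knockout libraries, against 2.86, 2.03 and 1.58 CPM in control libraries. Control 3 lay inside the knockout range and control 1 gave the highest value. Its log2 fold change of −0.53 (SE 0.31) came to −0.08 without knockout 1 and control 1.

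H2-DMb1 has a near-identical neighbour, H2-DMb2, and the deposited estimates shared reads between them. H2-DMb1 had 20.9, 34 and 34.63 reads in knockout and 58.05, 41 and 31.89 in control, while H2-DMb2 had 8.1, 0 and 3.37 reads in knockout and 2.95, 0 and 6.11 in control. Their sums were whole numbers, 29, 34 and 38 reads in knockout and 61, 41 and 38 in control, so the split between the pair is the uncertain part. The sum averaged 1.68 ± 0.185 CPM in knockout and 2.31 ± 0.615 CPM in control (SD, n = 3 each), and knockout 3 and control 3 held the same number of reads.

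Ciita (chromosome 16, 10480014 to 10531064), the coactivator, was near the limit of detection, with 7, 5 and 10 estimated reads in knockout libraries and 11.2, 13 and 10 in control libraries. In CPM these were 0.361, 0.248 and 0.491 in knockout, against 0.543, 0.644 and 0.494 in control. Knockout 3 and control 3 had the same 10 reads and were separated by scaling alone. The log2 fold change was −0.60 (SE 0.37), and the summed reads put the knockout at 65.5% of control with an exact 95% interval of 36.5 to 115%, which covers counting error of the pooled reads and not the spread between libraries. Ciita overlaps Dexi, with the same limit on strand.

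**Figure D1:**
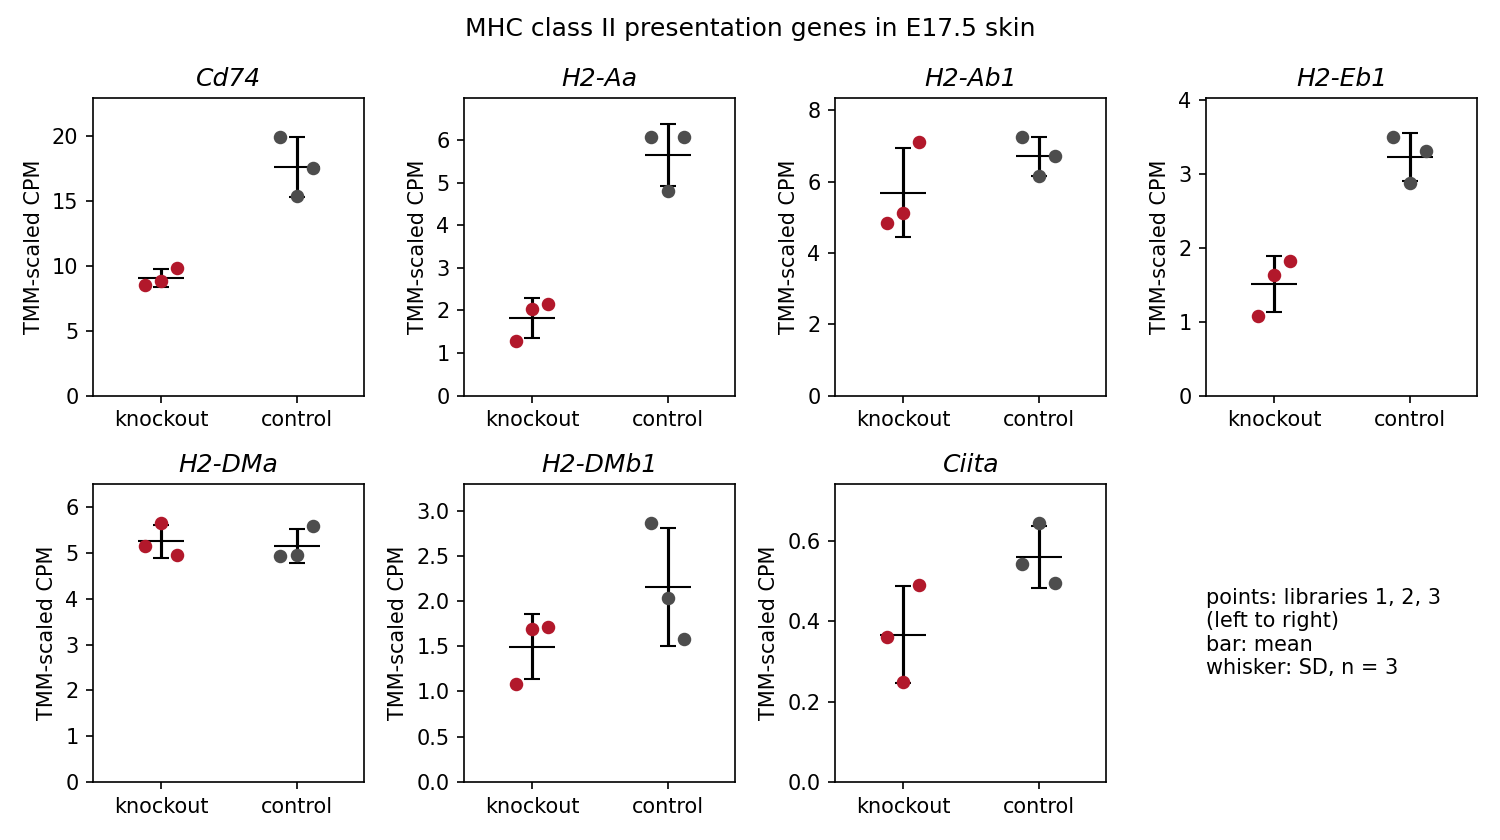
TMM-scaled CPM of the 7 class II presentation genes in 3 knockout and 3 control libraries of E17.5 skin, each panel with its own axis from 0; points are libraries, bars are means and whiskers SD. Cd74, H2-Aa and H2-Eb1 are separated between the groups, H2-Ab1 and H2-DMb1 overlap, H2-DMa covers the same range in both, and Ciita in knockout 3 and control 3 rests on the same 10 reads.

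Set side by side, 6 of the 7 genes had a log2 fold change below 0 (48.8% of all tested genes did), with a median of −0.60 against 0.004 over all 15035 genes. In 4 of the 7, Cd74, H2-Aa, H2-Eb1 and Ciita, every knockout library lay below every control library in CPM, and in 3 of them also in reads. Over all tested genes 6.78% showed that lower separation. A log2 fold change of −0.5 or lower was seen in 5 of the 7 and in 3.16% of all genes. Ciita is in each of these counts and supplies the median of −0.60. It passed the filter on low counts through its control libraries alone. With a filter of 1 CPM in 3 libraries, which removes Ciita, 5 of 6 lay below 0, with a median of −0.74. None of the 7 was called by edgeR's quasi-likelihood test at an adjusted p under 0.05, where 0.16% of all genes were called (0.0732% lower in knockout). At an unadjusted p under 0.05 there were 3 of the 7, all lower (3.35% of all genes were lower at that level, 7.42% in either direction), DESeq2 called 2 of the 7 (1.24% of its genes) and limma-voom 0 (0.0998%). Because the contrast chose the genes, nothing is read from these counts.

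Per kilobase of the longest principal coding transcript, Cd74 was the highest of the 7 in both groups, at 6.43 CPM per kb in knockout and 12.5 in control. H2-Ab1 followed at 4.69 CPM per kb in knockout and 5.53 in control. H2-Aa was at 1.62 CPM per kb in knockout and 5.01 in control, so its mean was closer to that of its partner in control skin than in knockout skin. H2-DMa stood at 3.17 CPM per kb in knockout and 3.11 in control, H2-DMb1 at 1.06 and 1.54, H2-Eb1 at 0.906 and 1.93, and Ciita at 0.0610 and 0.0932. This order is one of means, and differences between neighbours in it were not tested.

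Ratios within a library, which do not depend on scaling between libraries, described the same uneven pattern. The ratio of H2-Aa to H2-Ab1, per kilobase, was 0.286, 0.428 and 0.326 in knockout libraries, against 0.899, 0.841 and 0.972 in control libraries. The highest knockout ratio was about as far from the lowest control ratio as from 0, and no library of one group came near the other. The ratio of H2-Eb1 to H2-Ab1 averaged 0.193 ± 0.0359 in knockout and 0.349 ± 0.00912 in control. The ratio of Cd74 to H2-Aa was 5.28, 3.47 and 3.65 in knockout libraries, against 2.63, 2.56 and 2.31 in control libraries, again without overlap. These ratios use the same values as the levels above and add no independent evidence.

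**Figure D2:**
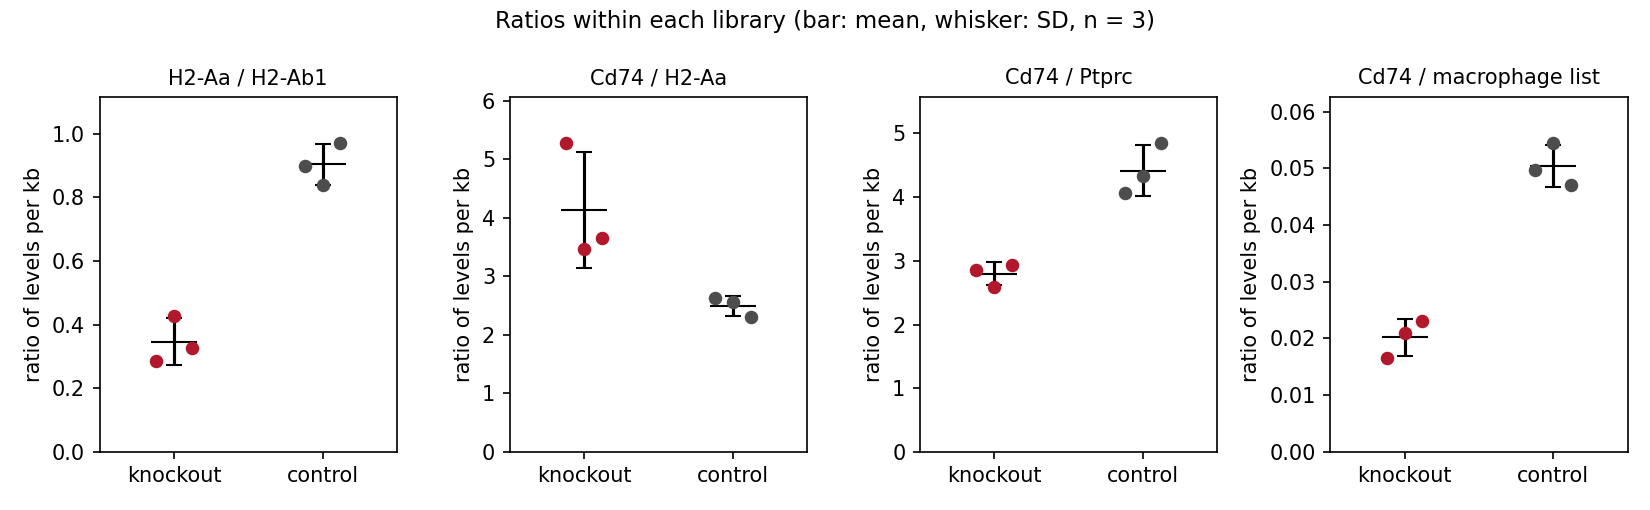
Ratios of levels per kilobase within each library for 3 knockout and 3 control libraries (points; bars are means, whiskers SD): H2-Aa to H2-Ab1, Cd74 to H2-Aa, Cd74 to the leukocyte gene Ptprc, and Cd74 to the summed macrophage list. Knockout ratios lie below control ratios in 3 panels and above them for Cd74 to H2-Aa.

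Within the groups the same library often gave the lowest or the highest value. Knockout 1 was the lowest knockout library for Cd74, H2-Aa, H2-Ab1, H2-Eb1 and H2-DMb1, and knockout 3 was the highest for 6 of the 7. Among controls, control 2 was the lowest for 4 of the 7 and control 1 the highest for 4. The share of all genes with the same order is not given here, so nothing is read from these counts. The mean centred log2 CPM of the 7 genes was −0.57, −0.34 and −0.13 in the knockout libraries and 0.47, 0.26 and 0.31 in the control libraries. Without knockout 1 and control 1 together, the log2 fold changes were −0.81 for Cd74, −1.37 for H2-Aa and −0.84 for H2-Eb1, and 6 of the 7 stayed below 0.

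The remaining class II genes were close to the floor. H2-Ea-ps, the E alpha gene under the symbol in the files, had 1 read in knockout 2 and 0 in the other 5 libraries. H2-Eb2, H2-Ob and H2-DMb2 did not pass the filter on low counts, at 0.0674, 0.250 and 0.187 CPM in knockout and 0.0495, 0.214 and 0.148 CPM in control. H2-Oa, the alpha chain of H2-DO, which restrains H2-DM, stood at 0.619, 0.149 and 0.294 CPM in knockout libraries, against 0.888, 0.248 and 0.642 CPM in control libraries, with overlap. March1 and March8, ubiquitin ligases that remove class II from the cell surface, stood at 1.84 ± 0.275 and 63.8 ± 12.8 CPM in knockout, against 1.61 ± 0.827 and 59.8 ± 10.1 CPM in control (SD, n = 3 each). None of these 3 tested genes was called by edgeR, by DESeq2 or by limma-voom, and 0 had an unadjusted p under 0.05.

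Genes that prepare antigen in the endosome lay on the other side of 0. All 7 tested, the cathepsin genes Ctss, Ctsl, Ctsb, Ctsd and Ctsh, the legumain gene Lgmn and the thiol reductase gene Ifi30, had a positive log2 fold change (51.2% of all genes did), from 0.14 to 0.30 with a median of 0.27. The median was 0.18 without knockout 1 and 0.17 without control 2, with all 7 above 0 in both. Ifi30 stood at 108, 68.4 and 68.0 CPM in knockout libraries, against 67.0, 65.5 and 66.3 CPM in control libraries, so knockout 1 was far above the rest, and without it the log2 fold changes of Ifi30 and Ctsd were 0.04 and 0.09. Macrophage markers lay on the same side of 0, 11 of 12 above it with a median of 0.29 and a summed level of 734 to 894 CPM in knockout and 519 to 724 CPM in control, and their part in these values was not tested. For 5 of the 7, every knockout library was above every control library, against 7.03% over all genes. Lgmn stood at 107, 101 and 99.4 CPM in knockout libraries, against 93.0, 69.9 and 88.5 CPM in control libraries. Ctss, the protease that trims the invariant chain, overlapped, with means of 13.9 ± 1.02 CPM in knockout and 12.7 ± 1.49 CPM in control (SD, n = 3 each). None of the 7 was called by edgeR, DESeq2 or limma-voom. At an unadjusted p under 0.05 there were 3, all higher, where 4.08% of all genes were higher at that level.

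Genes of the factors that occupy the class II promoter had values near 0. The 7 genes of the RFX, CREB and NF-Y complexes (Rfx5, Rfxap, Rfxank, Creb1, Nfya, Nfyb and Nfyc) had log2 fold changes from −0.16 to 0.03. Rfx5, which carries the DNA-binding domain of RFX, stood at 22.7, 24.6 and 24.9 CPM in knockout libraries, against 28.7, 26.1 and 26.0 CPM in control libraries, without overlap but with a log2 fold change of only −0.16 (SE 0.081). Nfya was likewise separated, with means of 71.5 ± 2.86 CPM in knockout and 78.8 ± 2.82 CPM in control (SD, n = 3 each). None of the 7 was called by edgeR, DESeq2 or limma-voom, and 0 had an unadjusted p under 0.05.

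Interferon-gamma is the main inducer of Ciita outside professional antigen-presenting cells. Ifng itself was listed at 0 in all 3 knockout libraries and at 0.0987, 0 and 0.0494 CPM in the control libraries, below the floor in each. The receptor genes Ifngr1 and Ifngr2, the kinase genes Jak1 and Jak2, and Irf1 and Socs1 had log2 fold changes from −0.16 to 0.12. Irf1, an interferon-induced transcription factor, averaged 11.4 ± 0.371 CPM in knockout and 11.5 ± 2.84 CPM in control (SD, n = 3 each). None of these genes was called by edgeR, DESeq2 or limma-voom, and 0 had an unadjusted p under 0.05.

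The class I pathway, which displays cytosolic peptides and shares the interferon control of class II, did not show the class II pattern. Its 12 tested genes had a median log2 fold change of 0.07, with 7 above 0 and 5 below, and −0.04 without control 2. B2m, the common light chain, averaged 213 ± 42.1 CPM in knockout and 177 ± 26.1 CPM in control, and the class I heavy chain gene H2-K1, whose reads may be shared with similar class I genes, at 37.5 ± 3.95 and 33.8 ± 5.97 CPM (SD, n = 3 each). The exception in position was Nlrc5, the class I counterpart of Ciita. It stood at 0.876, 1.09 and 0.883 CPM in knockout libraries, against 1.68, 1.14 and 1.48 CPM in control libraries, without overlap and with a log2 fold change of −0.59 (SE 0.26). Neither Nlrc5 nor any other of the 12 was called by edgeR, DESeq2 or limma-voom, and 0 had an unadjusted p under 0.05. Whether the class I and class II genes differ in their response was not tested.

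**Figure D3:**
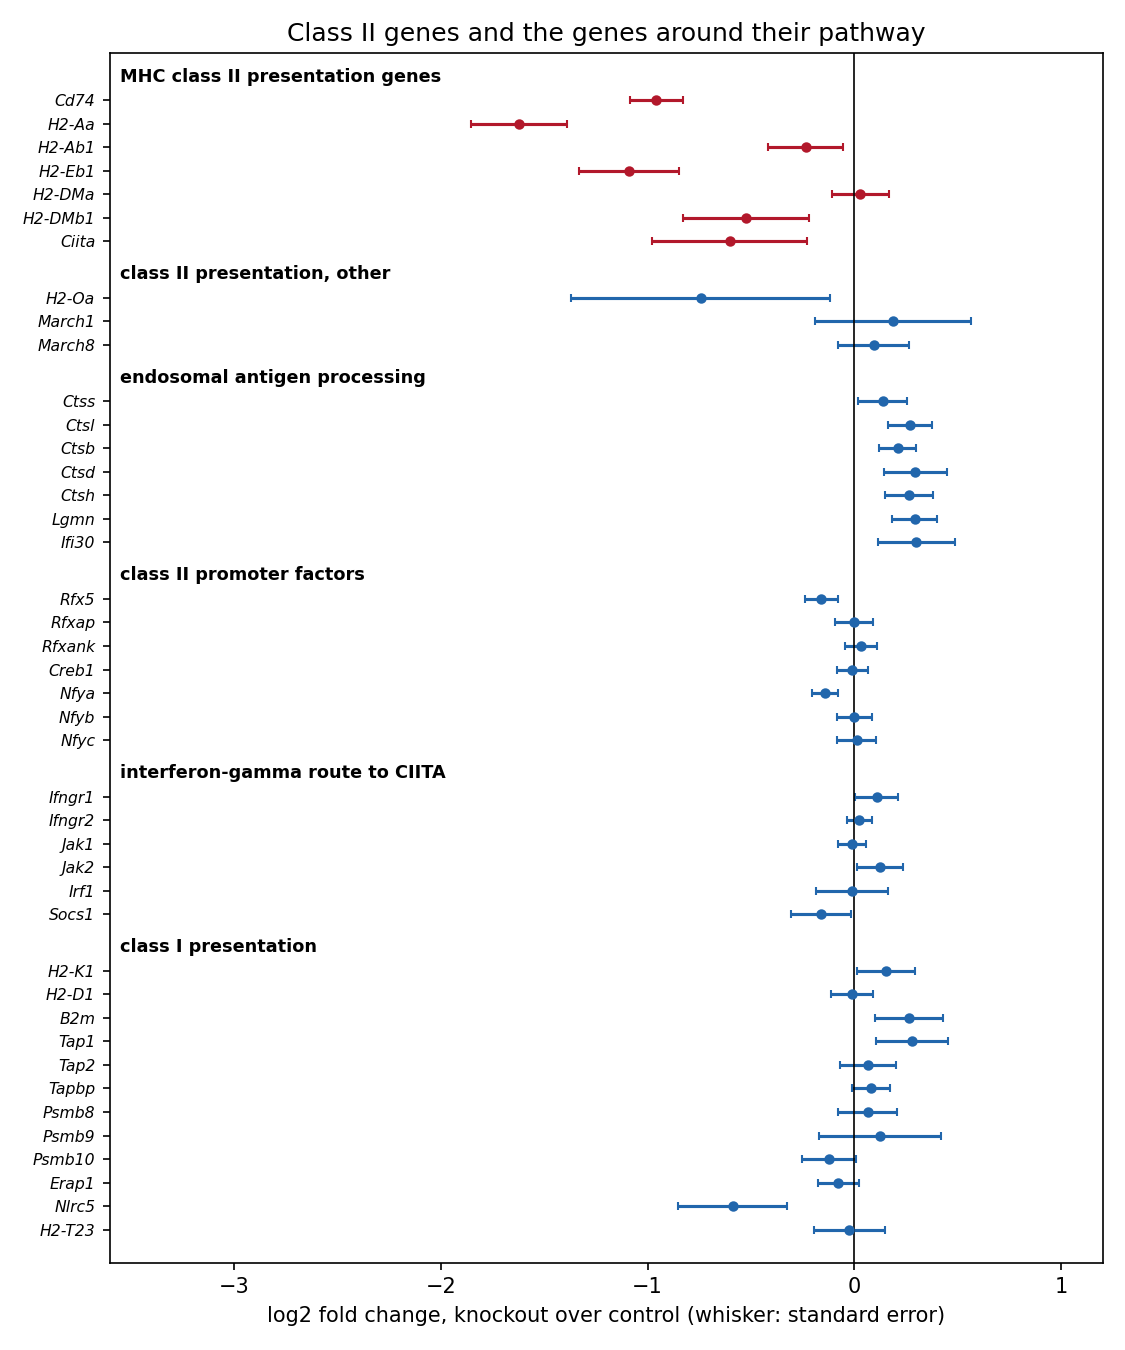
Log2 fold change, knockout over control, with its standard error, for the 7 class II presentation genes (red) and for tested genes of 5 further lists of the pathway (blue). Cd74, H2-Aa and H2-Eb1 lie furthest to the left, the 7 endosomal processing genes lie from 0.14 to 0.30, and the promoter factors and the interferon-gamma route lie around 0.

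Costimulatory genes, which antigen-presenting cells use beside class II to activate T cells, had a median log2 fold change of 0.23 over 6 tested genes, which was 0.11 without knockout 1 and 0.10 without control 3. Cd274, the inhibitory ligand PD-L1, stood at 4.64, 5.16 and 4.56 CPM in knockout libraries, against 6.81, 5.35 and 5.63 CPM in control libraries, without overlap. Icosl was separated the other way, with means of 23.9 ± 0.786 CPM in knockout and 22.3 ± 0.635 CPM in control (SD, n = 3 each). None of the 6 was called by edgeR, DESeq2 or limma-voom, and 0 had an unadjusted p under 0.05.

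The region of chromosome 17 from H2-Oa to H2-Ea-ps holds 15 genes of the files, in which runs of class II genes are broken by other genes. Between H2-DMb1 and H2-Ab1 lie Psmb9, Tap1, Psmb8 and Tap2, genes of class I peptide supply, with log2 fold changes of 0.12 (SE 0.30), 0.28 (SE 0.17), 0.06 (SE 0.14) and 0.07 (SE 0.14). H2-Ab1, H2-Aa and H2-Eb1 are consecutive among the tested genes and stood at −0.24, −1.62 and −1.09. The 6 other tested genes of the region had a median of 0.07, and none was called by edgeR. H2-Oa, at the other end of the region and also a class II gene, stood at −0.74 (SE 0.62) and is counted among these 6.

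**Figure D4:**
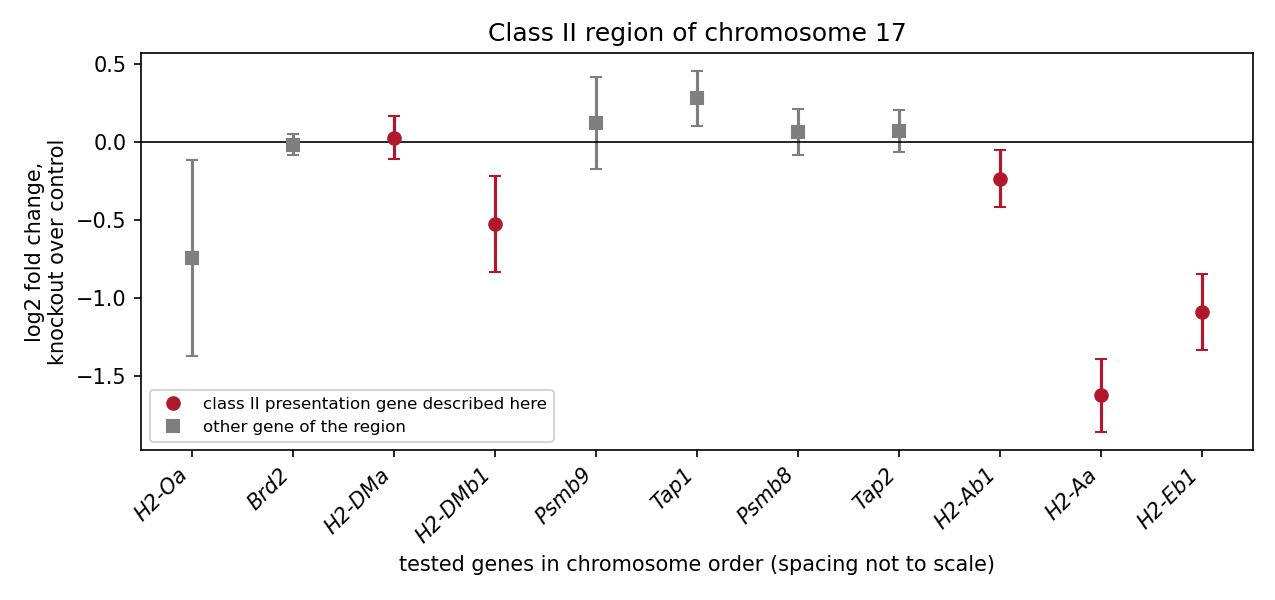
Log2 fold change, knockout over control, with its standard error, of the 11 tested genes of the class II region in chromosome order; red circles are the class II presentation genes described here, grey squares the other genes. H2-Aa and H2-Eb1 are the lowest, while the class I supply genes between H2-DMb1 and H2-Ab1 lie between 0.06 and 0.28.

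Among markers of the cells that can carry class II, the 6 pan-leukocyte genes all had a log2 fold change below 0, with a median of −0.15. Without control 1, 4 of the 6 were below 0 and the median was −0.03. Their summed level was 192 to 221 CPM in knockout and 195 to 262 CPM in control. Ptprc, the leukocyte antigen CD45, averaged 10.8 ± 0.768 CPM in knockout and 13.4 ± 2.54 CPM in control (SD, n = 3 each). Every knockout library lay below every control library, by a gap smaller than either SD. The 12 macrophage genes lay higher, 11 of 12 above 0 with a median of 0.29. They summed to 734 to 894 CPM in knockout and 519 to 724 CPM in control, without overlap. Knockout 2 and control 1 lay close, at 734 and 724 CPM, and F13a1 and Mrc1 gave the largest parts of the sum. Taken singly, 3 of the 12 genes were higher in every knockout library, where 7.03% of all genes were. Cd68 stood at 46.4, 44.8 and 47.1 CPM in knockout libraries, against 25.7, 22.9 and 38.7 CPM in control libraries. F13a1 and Mrc1, markers of resident tissue macrophages, stood at 242 ± 37.4 and 165 ± 19.2 CPM in knockout, against 170 ± 37.8 and 124 ± 23.2 CPM in control (SD, n = 3 each). No macrophage gene was called by edgeR, DESeq2 or limma-voom. At an unadjusted p under 0.05 there were 3, all higher, where 4.08% of all genes were higher at that level. Without knockout 1 and control 1 edgeR called F13a1 and Mrc1, among 139 genes called in all, against 24 with every library. The macrophage median was 0.11 without control 2 and 0.19 without knockout 1.

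Dendritic cell and Langerhans cell genes were scarce. The list summed to 16.4 to 20.8 CPM in knockout and 15.4 to 22.2 CPM in control, most of it from Irf8 and Zbtb46, which other cells also use. Cd207, the langerin gene, listed here as a marker of Langerhans cells, was below the floor in every library. It had 0, 0.0992 and 0 CPM in knockout libraries, against 0, 0 and 0.0494 CPM in control libraries. What this says of the number of Langerhans cells was not tested. Xcr1 and Clec9a, of conventional type 1 dendritic cells, stood at 0.418 ± 0.175 and 0.548 ± 0.120 CPM in knockout, against 0.395 ± 0.0502 and 0.494 ± 0.226 CPM in control (SD, n = 3 each). Itgax, the CD11c gene, stood at 0.155, 0.198 and 0.736 CPM in knockout libraries, against 0.641, 0.396 and 0.691 CPM in control libraries, with overlap. Of the 6 tested genes 4 were below 0, the median was −0.23 (0.05 without control 1), and none was called by edgeR, DESeq2 or limma-voom, with 0 at an unadjusted p under 0.05.

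Defining genes of B cells and T cells were also low. Ms4a1, which defines B cells, was below the floor in every library. The B cell list summed to 66.8 to 73.6 CPM in knockout and 57.0 to 70.0 CPM in control, nearly all of it from Ebf1, which mesenchymal cells also use. Cd4, which T cells and some macrophages and dendritic cells carry, stood at 1.44, 2.18 and 2.16 CPM in knockout libraries, against 2.71, 2.62 and 2.96 CPM in control libraries, without overlap. The T and innate lymphoid list summed to 78.5 to 82.8 CPM in knockout and 53.0 to 92.6 CPM in control, mainly from Gata3, which keratinocytes express too. Of its 5 tested genes, 3 had a log2 fold change below 0 and 2 above. The monocyte and neutrophil list summed to 10.5 to 31.1 CPM in knockout and 16.0 to 21.9 CPM in control. None of the tested genes of these 3 lists was called by edgeR, DESeq2 or limma-voom, and 0 had an unadjusted p under 0.05.

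Relative to leukocyte genes within the same library, the levels of Cd74 and H2-Aa were also apart. The ratio of Cd74 to Ptprc, per kilobase, was 2.85, 2.59 and 2.94 in knockout libraries, against 4.07, 4.33 and 4.85 in control libraries. Its ratio to the summed pan-leukocyte genes was 0.0441 ± 0.00386 in knockout and 0.0788 ± 0.00174 in control, and to the summed macrophage genes 0.0202 ± 0.00332 and 0.0504 ± 0.00376 (SD, n = 3 each). For H2-Aa the ratio to Ptprc was 0.540, 0.746 and 0.804 in knockout libraries, against 1.55, 1.69 and 2.10 in control libraries. These ratios were chosen after the values were known. The part that the number of leukocytes of each kind has in the class II levels was not tested.

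**Figure D5:**
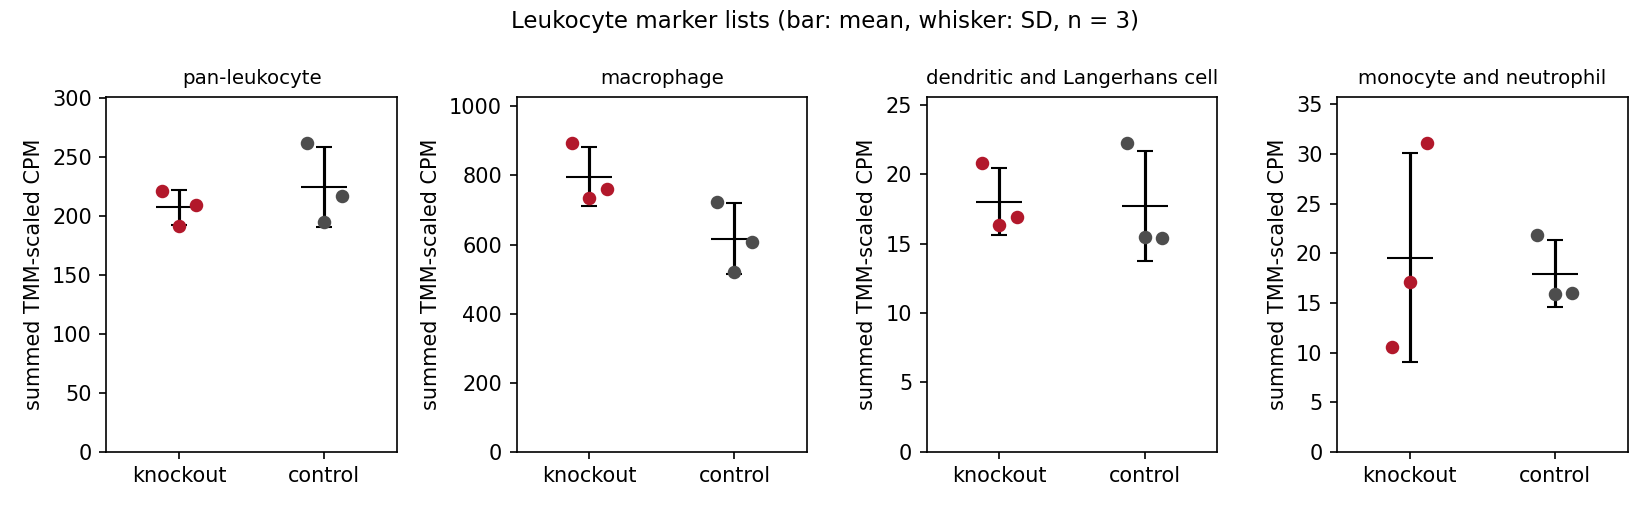
Summed TMM-scaled CPM of 4 marker lists in 3 knockout and 3 control libraries (points; bars are means, whiskers SD), each panel with its own axis from 0. The macrophage list is higher in every knockout library (734 to 894 CPM) than in any control library (519 to 724 CPM). Knockout 2 and control 1 nearly meet, and the other 3 lists overlap.

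The genes whose profile over the 6 libraries was nearest to the mean profile of the 7 class II genes, by root mean square distance of centred log2 CPM, were Pparg, Fzd4, Plvap, Cst7, Frzb, Myb, Abca8a and Slc45a3. Their distances ran from 0.044 to 0.110 log2 units, where the median of 13838 candidate genes was 0.399 and the 7 genes themselves lay 0.152 (Cd74) to 0.475 (H2-Aa) from their own mean. Pparg, a nuclear receptor that drives adipocyte formation, averaged 18.6 ± 2.87 CPM in knockout and 29.2 ± 2.14 CPM in control (SD, n = 3 each). Plvap, which builds the diaphragms of endothelial pores, averaged 54.0 ± 4.63 and 81.0 ± 2.19 CPM, and Cst7, which encodes the leukocyte protease inhibitor cystatin F, at 5.16 ± 0.929 and 7.89 ± 0.186 CPM. The likeness was computed over the same 6 libraries that make up the contrast and is a description.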

How the data were processed

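Per the file headers, the deposited values are estimated (expected) counts, 1 value per gene and library, not normalized. The submitters' processing notes list, with no role given, the build GRCm38.p6 and the tools RSEM 1.2.12, Bowtie2 2.2.5 and HISAT2 2.0.4. Such counts share reads between similar genes by a model, so close copies are uncertain one by one. The deposited estimated counts were rounded, filtered with filterByExpr (minimum count 10, leaving 15035 genes), scaled with TMM and tested in R 4.3.3 with edgeR 4.0.16 (quasi-likelihood, robust), the model holding genotype alone, and p-values were adjusted by Benjamini-Hochberg across the whole table. SE is the absolute log2 fold change divided by the square root of F. DESeq2 1.42.0 and limma-voom (limma 3.58.1) were alternatives. Log2 CPM used a prior count of 2. Coordinates and promoters are from RefSeq GRCm38.p6, transcript lengths from GENCODE M21.

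The 7 genes and the 15 further lists (114 genes) were chosen with earlier results of these data known. Named genes were the 7, Tie1, the class II pathway lists and up to 4 genes of smallest p from other lists. The 8 nearest profiles among genes of at least 1 CPM were named too. Cd207, Xcr1, Clec9a, Ms4a1, Cd3d and Cd3e were added after their values were seen. So were the genes of the chromosome 17 region and list genes named for their share of a sum. Some genes of the lists are not reported here by name.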

Additional observations from a re-analysis of the deposited data

How the results depend on the processing

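The log2 fold changes of Cd74, H2-Aa, H2-Ab1, H2-Eb1, H2-DMb1 and Ciita were below 0 under all alternatives run that kept the gene, and that of H2-DMa changed sign. The median over the tested class II genes was −0.60 and, leaving out 1 library at a time, lay between −0.87 (knockout 3 left out) and −0.58. It was −0.74 with a filter of 1 CPM in 3 libraries, which removes Ciita. Of the 7 genes, 0 were called in the fit reported. With no filter, with DESeq2 and without knockout 1 and control 1 there were 2 (Cd74 and H2-Aa). Over all genes these settings called 38, 207 (1.24%) and 139. The contrast chose the 7 genes, so nothing is read from these calls. The pathway lists had 0 calls in every setting. The marker lists had 0, but 1 (Emcn) with DESeq2 and 2 (F13a1 and Mrc1) without knockout 1 and control 1. Over all genes 24 were called, 38 with no filter, 207 with DESeq2, 15 with limma-voom, 139 without knockout 1 and control 1, and 1 (without knockout 2) to 11 (without knockout 1) with 1 library left out. The cause was not tested. With the replicate number as a block 52 genes were called, and 0 of the 7. Same-numbered libraries deviated from their group means with correlations of 0.411, 0.0431 and 0.266. Differently numbered libraries gave correlations from −0.353 to 0.184. The labels do not say whether the numbers mark pairs, and the fit reported leaves the numbers out. Of 107 other genes considered, 39 changed sign in at least 1 setting. Depth limits genes with few reads, Ciita among them.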

Other observations

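Cd209a, a gene of monocyte-derived and type 2 dendritic cells, was too low to be tested and was picked after its values were seen. It stood at 0.309, 0.297 and 0.0491 CPM in knockout libraries, against 0.740, 0.644 and 0.395 CPM in control libraries, without overlap. S100a8 and S100a9, which encode the calprotectin subunits of neutrophils and stressed keratinocytes, were high in 1 library, knockout 3, at 5.30 and 12.8 CPM. In the other 5 libraries S100a8 lay from 0.515 to 1.58 CPM and S100a9 from 0.876 to 3.16 CPM. Cd3g, a chain of the T cell receptor complex, stood at 0.103, 0.347 and 0.491 CPM in knockout libraries, against 0.543, 0.545 and 0.691 CPM in control libraries, and did not pass the edgeR test. Its sister chains, too low to be tested, lay on both sides. Cd3d averaged 0.116 CPM in knockout and 0.247 in control, and Cd3e 0.216 and 0.165. Cd8a had a log2 fold change of 0.18 (SE 0.29).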
